A study of Homo sapiens with 4 samples.

Results

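A group of 9 genes of the osteoblast lineage was followed in 143B cells, a human osteosarcoma line, after depletion of CBX3. They were taken by symbol from the table of gene counts: RUNX2, SP7, ALPL, BGLAP, IBSP, SPP1, TNFRSF11B, PTH1R and DLX5. All 9 were among the 37450 features listed, and 6 of the 9 had enough reads to be among the 20999 genes tested. Cells received either a control siRNA without a target gene (siNC, genotype given as WT; 2 libraries) or siRNA against CBX3 (siCBX3, genotype given as CBX3 knockdown; 2 libraries). Both groups were the same line, carried through the same Lipofectamine RNAiMAX transfection, with RNA taken on day 2 by TRIzol and made into stranded mRNA libraries. The comparison therefore holds 1 tumour cell line at 1 time, and the number of siRNAs used was not given in the sources used here.

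Osteoblasts arise from mesenchymal progenitors when the transcription factor RUNX2, with SP7 (osterix) acting after it and the homeobox factor DLX5 feeding into it, turns on the genes of bone matrix. Early cells carry alkaline phosphatase (ALPL), which splits pyrophosphate and so permits mineral to form; later cells secrete bone sialoprotein (IBSP), osteopontin (SPP1) and osteocalcin (BGLAP). The lineage also signals to other cells through osteoprotegerin (TNFRSF11B), a secreted decoy receptor for the osteoclast-inducing ligand RANKL, and responds to parathyroid hormone and its related peptide through PTH1R. Osteosarcoma is a tumour of cells that can make bone matrix, and lines derived from it keep these genes to different extents. The depleted gene, CBX3, encodes HP1γ, a member of the heterochromatin protein family.

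Total counts lay between 36509298 and 40336907 per library, and log2 CPM (counts scaled to library depth) had a Pearson correlation across genes of 0.991 within each group and of 0.957 to 0.961 across groups. CBX3 itself was 9.15-fold lower in siCBX3 than in siNC, with 20311 and 21384 counts against 2020 and 2163 (edgeR quasi-likelihood test, log2 fold change -3.19 ± 0.08 SE, Benjamini-Hochberg adjusted p = 2.73e-20). Of all genes tested, 48.4% were called changed at an adjusted p under 0.05, 24.4% higher and 24.0% lower in siCBX3. Between 72.2% and 73.1% of the counts from 1 to 49 in each library were even numbers, against 49.9% to 52.4% of counts of 1000 or more, so that a low count here was not read as that many separate molecules. The labels do not say whether the replicates were separate cultures, so each p-value speaks to the variation among these 4 libraries alone, and that variation may be technical.

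The transcripts of the secreted proteins osteopontin (SPP1) and osteoprotegerin (TNFRSF11B) rose in siCBX3, by 7.09-fold and 8.64-fold. That of the hormone receptor PTH1R fell from a low level to almost no reads. RUNX2 was called higher at 1.31-fold, a call that 12 of 15 alternative settings lost, among them each fit without 1 library. DLX5 and BGLAP did not pass the test, and SP7, ALPL and IBSP were at or near 0 in all 4 libraries. Among the 6 tested genes, 3 were called higher (2 in 12 of 14 alternative settings), 1 lower and 2 neither, and their median log2 fold change was 0.47, against -0.0058 over all genes tested. A call in either direction was made for 4 of the 6, where 48.4% of all genes tested were called. A call together with a log2 fold change of 1 or more in size was seen for SPP1, TNFRSF11B and PTH1R, 3 of the 6, against 12.8% of all genes tested. PTH1R had enough reads for the test only through the siNC libraries, where it was higher, so these counts over the tested genes do not stand for all 9. In a bulk sample, fewer cells that carry a transcript and less of it per cell cannot be told apart.

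**Figure D1:**
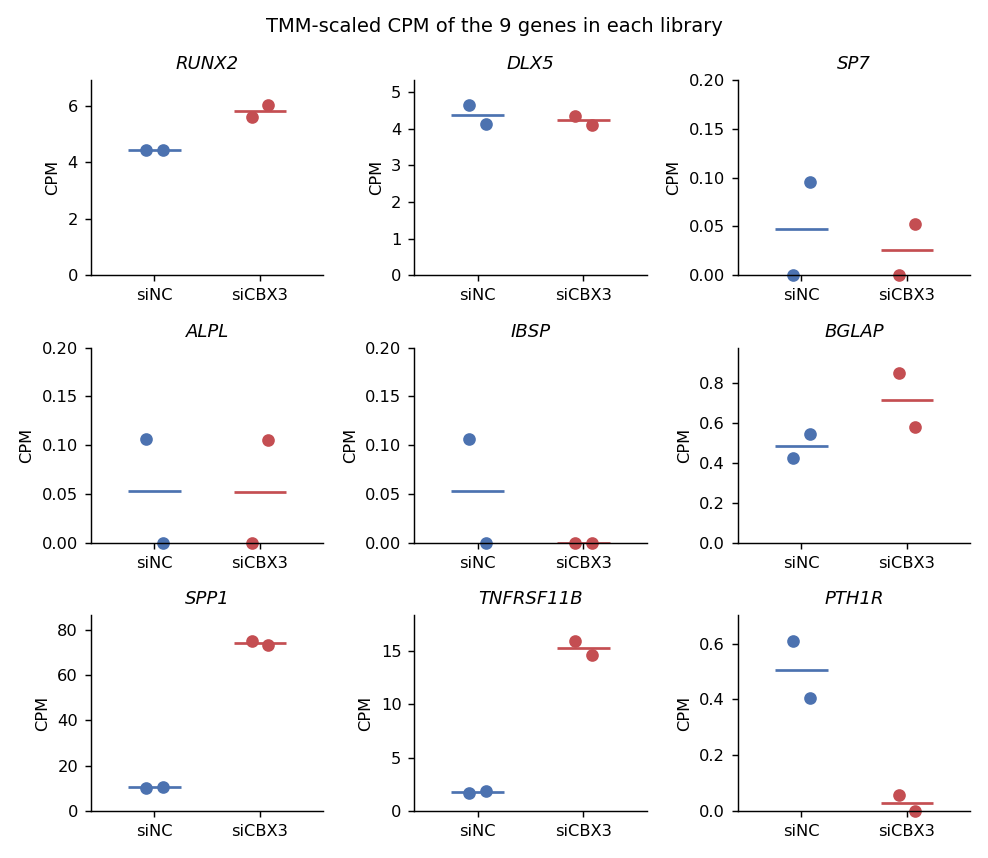
Level of each of the 9 genes in each library, in TMM-scaled CPM on linear axes that start at 0 and differ between panels. Points are libraries and bars are group means (n = 2). SPP1, TNFRSF11B, RUNX2 and BGLAP were higher in both siCBX3 libraries, though BGLAP did not pass the test. PTH1R was lower in both, and SP7, ALPL and IBSP had 4 counts or fewer in every library.

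RUNX2, the runt-domain factor that commits cells to the lineage, lies on chromosome 6 (45328157 to 45664349, plus strand, GRCh38). It had 167 and 187 counts in siNC against 198 and 228 in siCBX3. Both siCBX3 libraries stood above both siNC libraries. Scaled for depth, it averaged 4.44 ± 0.0048 CPM (SD over the 2 libraries, as for the levels that follow) against 5.82 ± 0.282 CPM. The log2 fold change was 0.39 ± 0.16 SE (edgeR adjusted p = 0.0431), with a 95% interval of 0.066 to 0.72. This call was marginal: in the settings that lost it the adjusted p lay between 0.0505 and 0.244, and leaving out any 1 of the 4 libraries gave an adjusted p between 0.0722 and 0.186. RUNX2 stood 4022nd by fold change among the 5132 genes called higher.

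RUNX2 is known to bind its own promoter at the letters ACCACA, and the sequence is shown because the RefSeq promoter for the first start of RUNX2 (GRCh38.p14) held that run 4 times within 250 bases before to 50 after the start. The first 2 matches lay 191 and 87 bases before the start; the other two lay 16 and 24 bases after it and are drawn here in capitals within 30 bases (chr6:45328338-45328367, plus strand).
RUNX2: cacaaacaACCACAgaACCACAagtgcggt
A match is a description of the letters only, and no binding was measured.

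SUPT3H, which lies across RUNX2 on the opposite strand, moved by a similar amount. It had 192 and 173 counts in siNC against 202 and 247 in siCBX3, a log2 fold change of 0.42 ± 0.16 SE (edgeR adjusted p = 0.0372). The exons of the 2 genes share 0 bases in the annotation used. SUPT3H was singled out after its values had been seen.

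DLX5 (chromosome 7, 97020392 to 97025097, minus strand), a homeobox factor of the distal-less family that responds to bone morphogenetic proteins, did not pass the test. Its counts were 175 and 174 in siNC against 153 and 156 in siCBX3, which came to 4.39 ± 0.364 and 4.23 ± 0.159 CPM. The groups overlapped once scaled for depth. The log2 fold change was -0.052 ± 0.17 SE (edgeR adjusted p = 0.826), and the 95% interval ran from 0.755-fold to 1.23-fold.

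DLX6, the paired homeobox gene that lies 9353 bp from DLX5, fell. Its counts were 188 and 216 in siNC against 126 and 125 in siCBX3, a log2 fold change of -0.56 ± 0.17 SE (edgeR adjusted p = 0.00908). DLX6-AS1, a noncoding RNA from the opposite strand, rose, with 349 and 477 counts in siNC against 512 and 589 in siCBX3 (log2 fold change 0.54 ± 0.12 SE, edgeR adjusted p = 0.000569). DLX6 and DLX6-AS1 share 0 exon bases, yet the use of strand in the counting was not given in the sources used here, so the pair is uncertain. The difference between the DLX5 and DLX6 changes was not tested. DLX6-AS1 was looked at after its values had been seen.

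SP7, the zinc finger factor osterix (chromosome 12, 53326575 to 53345315, minus strand), had 0 and 4 counts in siNC against 0 and 2 in siCBX3. It fell below the minimum for testing. With that minimum removed, its adjusted p in edgeR was 0.849. If counts were separate events, a count of 0 would allow up to 3 counts, which is between 0.0712 and 0.0851 CPM at these depths. This bound covers counting error only, and it may be too small given the excess of even numbers among low counts. At these levels no difference between groups was detectable.

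Among 12 other transcription factors and partners of this lineage, 11 were tested, 3 were called higher and 3 lower, with a median log2 fold change of 0.12. Both shares were close to those over all genes tested, 24.4% higher and 24.0% lower. Across the alternative settings the number higher was 2 or 3 and the number lower 2 to 4. RUNX3, a paralogue of RUNX2 that binds the same letters, rose 4.11-fold, from 354 and 381 counts to 1351 and 1420 (log2 fold change 2.04 ± 0.10 SE, edgeR adjusted p = 1.81e-14). RUNX1, the paralogue best known from blood formation, fell from 713 and 750 counts to 448 and 560 (log2 fold change -0.42 ± 0.11 SE, edgeR adjusted p = 0.00267). CBFB, the partner subunit that all RUNX factors need for stable DNA binding, fell from 3955 and 3983 counts to 2688 and 2682 (log2 fold change -0.44 ± 0.08 SE, edgeR adjusted p = 6.51e-05). The RUNX genes thus did not move together.

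HEY1, a Notch target that represses RUNX2 activity, rose 2.19-fold, from 533 and 700 counts to 1255 and 1199 (edgeR adjusted p = 2.06e-09). MSX1, a homeobox factor of craniofacial bone, was called higher with a log2 fold change of 0.40 ± 0.11 SE. TWIST1, TWIST2, ZNF521 and MSX2 did not pass the test, with log2 fold changes between 0.056 and 0.23. DLX3 had 9 and 8 counts in siNC against 0 and 2 in siCBX3 and was not tested. Per length, RUNX3 was at 2.09 RPKM in siNC and RUNX2 at 0.556, and in siCBX3 they were at 8.15 and 0.690 RPKM.

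ALPL, the tissue-nonspecific alkaline phosphatase (chromosome 1, 21509372 to 21578412, plus strand), had 4 and 0 counts in siNC against 0 and 4 in siCBX3. IBSP, bone sialoprotein (chromosome 4, 87799581 to 87812435, plus strand), had 4 and 0 counts in siNC and none in either siCBX3 library. Neither was tested, and without a minimum count their adjusted p in edgeR were 0.983 and 0.51. The transcripts of the early enzyme and of this mineral-nucleating protein were thus close to absent from both groups at this depth, as was that of SP7.

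Osteopontin, the product of SPP1, is an acidic phosphoprotein of bone matrix that binds calcium mineral and cell-surface integrins and is also secreted by many tumours. SPP1 lies on chromosome 4 (87975650 to 87983426, plus strand). Its promoter is shown because SPP1 is a known RUNX2 target and had the highest level of the 9 genes in both groups: the 186 bases just before its first counted exon base (chr4:87975464-87975649, plus strand, RefSeq, GRCh38.p14) hold 1 match to the RUNX core, in capitals, 142 bases before the RefSeq start.
SPP1: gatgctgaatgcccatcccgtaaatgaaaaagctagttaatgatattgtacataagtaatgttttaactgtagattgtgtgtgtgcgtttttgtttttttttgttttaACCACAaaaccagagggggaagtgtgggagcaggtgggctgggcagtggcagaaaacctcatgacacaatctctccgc

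The SPP1 counts were 388 and 449 in siNC against 2652 and 2779 in siCBX3. The groups were far apart, and the libraries of each lay close together. Levels were 10.5 ± 0.255 CPM in siNC and 74.3 ± 1.35 CPM in siCBX3. The log2 fold change was 2.82 ± 0.09 SE (edgeR adjusted p = 6.5e-18), with a 95% interval of 6.22-fold to 8.07-fold. SPP1 stood 165th by fold change among the 5132 genes called higher. By RPKM it lay above 64.6% of tested genes in siNC and above 93.1% in siCBX3.

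SPP1 belongs to the SIBLING family, acidic matrix proteins whose genes sit side by side on chromosome 4. IBSP, DMP1 and DSPP of this family had too few reads for a change to be seen. IBSP, 163215 bp away, had the counts given above. DMP1, a mineralization protein of osteocytes, had 2 counts in each siNC library and 0 in each siCBX3 library, and DSPP, the dentin sialophosphoprotein, had 4 and 0 against 0 and 2. Outside the family, PKD2, 24242 bp from SPP1, had a log2 fold change of 0.16 ± 0.08 SE and was not called (edgeR adjusted p = 0.112). ABCG2, a drug transporter 106838 bp away, fell, from 266 and 258 counts to 86 and 104 (log2 fold change -1.34 ± 0.17 SE, edgeR adjusted p = 6.9e-07). DSPP, PKD2 and ABCG2 were looked at after their values had been seen.

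All 7 receptors known to bind osteopontin were tested. Of these, 4 were called higher and none lower, where the shares over all genes tested were 24.4% and 24.0%. Their median log2 fold change was 0.37. None was lower at an unadjusted edgeR p under 0.05 or by DESeq2 or limma-voom either. ITGB3, the β chain of the integrin that recognises its RGD motif, rose 2.20-fold, from 838 and 933 counts to 1719 and 1861 (edgeR adjusted p = 7.89e-11). ITGAV, the α chain of that integrin, rose 1.94-fold, from 2597 and 2397 counts to 4433 and 4508 (edgeR adjusted p = 1.63e-09). ITGB1, the β chain shared by many matrix integrins, rose 1.46-fold (edgeR adjusted p = 3.77e-06). ITGA4 was also called higher, with a log2 fold change of 0.37 ± 0.08 SE. ITGB5, ITGA9 and CD44, the hyaluronan receptor, were not called, with log2 fold changes between -0.23 and 0.061.

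BGLAP encodes osteocalcin, the vitamin K-dependent protein of mature osteoblasts (chromosome 1, 156241962 to 156243321, plus strand). It had 16 and 23 counts in siNC against 30 and 22 in siCBX3. The groups overlapped in counts and in RPKM but not in TMM-scaled CPM, at 0.485 ± 0.0858 and 0.716 ± 0.191 CPM. The log2 fold change was 0.55 ± 0.44 SE (edgeR adjusted p = 0.318), and its 95% interval of 0.782-fold to 2.73-fold leaves the direction unknown.

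The BGLAP value is further limited by overlap. Of its 1190 exon bases, 398 (33.4%) are shared with PMF1-BGLAP, a readthrough transcript that joins it to the upstream gene PMF1, and 1 with PAQR6 on the opposite strand. PMF1-BGLAP had 1368 and 1916 counts in siNC against 1142 and 1327 in siCBX3 and was called lower (log2 fold change -0.28 ± 0.10 SE, edgeR adjusted p = 0.0205). With the 2 features summed, the log2 fold change became -0.27 (edgeR adjusted p = 0.0263), a sum that PMF1-BGLAP dominates. PMF1-BGLAP in turn shares 587 of its 1007 exon bases with PMF1. PMF1 had 1434 and 1978 counts in siNC against 1169 and 1397 in siCBX3 (log2 fold change -0.28). The summed value therefore says little of BGLAP itself. PMF1 was looked at after its values had been seen. No other gene of the 9 shares exon bases with a listed feature.

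Of 15 further genes of bone matrix and mineralization, 13 were listed and 10 tested. Of the 10, 6 were called higher and 1 lower, against 24.4% and 24.0% of all genes tested. Their median log2 fold change was 0.34. SPARC, the collagen-binding matrix protein osteonectin, rose 5.40-fold, from 13473 and 11990 counts to 62806 and 63795 (log2 fold change 2.43 ± 0.09 SE, edgeR adjusted p = 1.11e-16). BGN, the small proteoglycan biglycan, rose 1.78-fold (edgeR adjusted p = 4.6e-07). COL1A1, one chain of type I collagen, rose from 510 and 566 counts to 645 and 689 (log2 fold change 0.44 ± 0.10 SE), and COL1A2, its partner chain, at 0.24 ± 0.12 SE was not called (edgeR adjusted p = 0.113). By RPKM, SPARC exceeded SPP1 in both groups, at 68.1 against 4.64 in siNC and 349 against 31.1 in siCBX3.

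Genes that set pyrophosphate and phosphate supply were called in both directions. ENPP1, which makes pyrophosphate outside the cell, fell, from 564 and 669 counts to 355 and 329 (log2 fold change -0.72 ± 0.12 SE, edgeR adjusted p = 1.85e-05). ANKH, which brings about its release from the cell, rose (log2 fold change 0.53 ± 0.09 SE). The phosphate importers SLC20A1 and SLC20A2 were called higher at 0.30 ± 0.08 SE and 0.38 ± 0.08 SE. PHOSPHO1, a phosphatase of matrix vesicles, and MGP, an inhibitor of calcification, were not called (log2 fold changes 0.079 and 0.13), and DMP1, PHEX and AHSG were not tested.

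**Figure D2:**
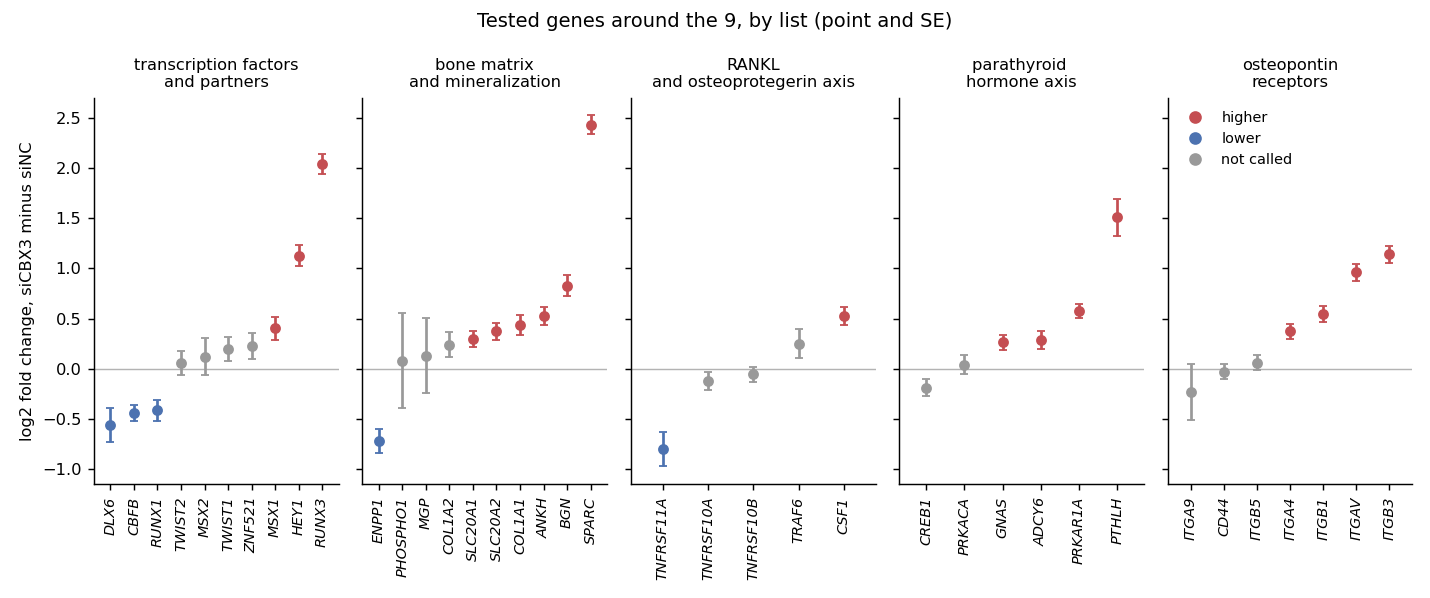
Log2 fold change, siCBX3 minus siNC, of tested genes of the 5 lists around the 9 genes, with 1 gene of the first list not drawn; points are edgeR estimates, bars are 1 SE, and colour gives the call at an adjusted p under 0.05. RUNX3, SPARC, PTHLH and ITGB3 stood highest in their lists, and DLX6, ENPP1 and TNFRSF11A lowest in theirs.

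TNFRSF11B encodes osteoprotegerin, the decoy that binds RANKL and also the death ligand TRAIL (chromosome 8, 118923557 to 118952200, minus strand). It had 62 and 80 counts in siNC against 563 and 555 in siCBX3. The lower siCBX3 library lay far above the higher siNC library. Levels were 1.77 ± 0.179 CPM in siNC and 15.3 ± 0.939 CPM in siCBX3. The log2 fold change was 3.10 ± 0.15 SE (edgeR adjusted p = 2.81e-14), with a 95% interval of 6.90-fold to 10.7-fold. It stood 139th by fold change among the genes called higher, and by RPKM it moved from above 23.2% to above 67.8% of tested genes.

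The other genes of the RANKL and osteoprotegerin axis were read beside it. Of 7 genes, 5 were tested, 1 was called higher and 1 lower, with a median log2 fold change of -0.057. Over all genes tested the shares were 24.4% higher and 24.0% lower. TNFSF11, which encodes RANKL, had 0 counts in all 4 libraries, while TNFRSF11A, its signalling receptor RANK, fell from 206 and 226 counts to 116 and 111 (log2 fold change -0.80 ± 0.17 SE, edgeR adjusted p = 0.000453). CSF1, the growth factor of the osteoclast lineage, rose 1.44-fold, from 1416 and 1341 counts to 1749 and 1903 (edgeR adjusted p = 2.89e-05). TNFSF10, which encodes TRAIL, had 6 and 4 counts in siNC against 8 and 4 in siCBX3 and was not tested. Its death receptors TNFRSF10A and TNFRSF10B and the adaptor TRAF6 were not called, with log2 fold changes of -0.12, -0.057 and 0.25.

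PTH1R, the G protein-coupled receptor of parathyroid hormone (chromosome 3, 46877746 to 46903799, plus strand), went the other way. It had 23 and 17 counts in siNC against 2 and 0 in siCBX3. The groups did not overlap, yet every count was small. Levels were 0.507 ± 0.146 CPM in siNC and 0.0284 ± 0.0401 CPM in siCBX3, and the edgeR adjusted p was 0.000482. Summed over libraries and scaled for depth, the counts of 40 and 2 gave a ratio of siNC to siCBX3 of 18.3, with an exact 95% interval of 4.75 to 157 that covers counting error only. Of 5 tested coding genes within 250 kb of PTH1R, 4 were called lower and 0 higher, where 24.0% of all genes tested were called lower. Among the 4 was TMIE, with 10 and 22 counts in siNC against 0 and 2 in siCBX3. Like PTH1R, it had enough reads for the test only through the siNC libraries. Near SP7, 5 of 17 tested neighbours were called higher and 2 lower. These numbers were 4 and 5 of 16 near BGLAP, 1 and 3 of 6 near ALPL, and 0 and 2 of 2 near DLX5. Near RUNX2, IBSP and SPP1 they were 1 and 0 of 1, 1 and 0 of 2, and 0 and 1 of 2. A fall shared across the region of PTH1R was not tested. The neighbours of PTH1R were looked at after their values had been seen.

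The fitted log2 fold change of PTH1R, -4.05 ± 0.88 SE, depends on the prior count and on single reads. It was -7.32 without siCBX3 replicate 1, -3.08 when replicate 2 of that group was left out instead, and -2.80 with a prior count of 2. PTH1R was called lower wherever it was tested, but with counts halved it fell below the minimum, and 21 against 1 then gave a ratio of 19.2 (exact 95% interval 3.10 to 796).

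Of 8 other genes of the parathyroid hormone axis, 7 were listed and 6 tested. Of the 6, 4 were called higher and none lower, against 24.4% and 24.0% of all genes tested. Their median log2 fold change was 0.28. At an unadjusted edgeR p under 0.05, 1 gene, CREB1, was lower, and none was called lower by DESeq2 or limma-voom. PTHLH, which encodes the parathyroid hormone-related peptide that PTH1R binds, rose 2.84-fold, from 74 and 88 counts to 186 and 237 (log2 fold change 1.51 ± 0.19 SE, edgeR adjusted p = 3.94e-07). The transcripts of ligand and receptor thus changed in opposite directions. PRKAR1A, a regulatory subunit of protein kinase A, rose 1.49-fold, from 11696 and 13470 counts to 16310 and 18033 (edgeR adjusted p = 3.98e-07). GNAS, the stimulatory G protein subunit that couples the receptor to adenylyl cyclase, rose 1.20-fold (edgeR adjusted p = 0.00498), and the cyclase ADCY6 was called higher with a log2 fold change of 0.29 ± 0.09 SE. PRKACA and CREB1 were not called (0.039 and -0.19), and PTH2R, the second receptor, had 2 counts in 1 siNC library and none elsewhere. Without siCBX3 replicate 1, 2 of these genes were called higher in place of 4.

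**Figure D3:**
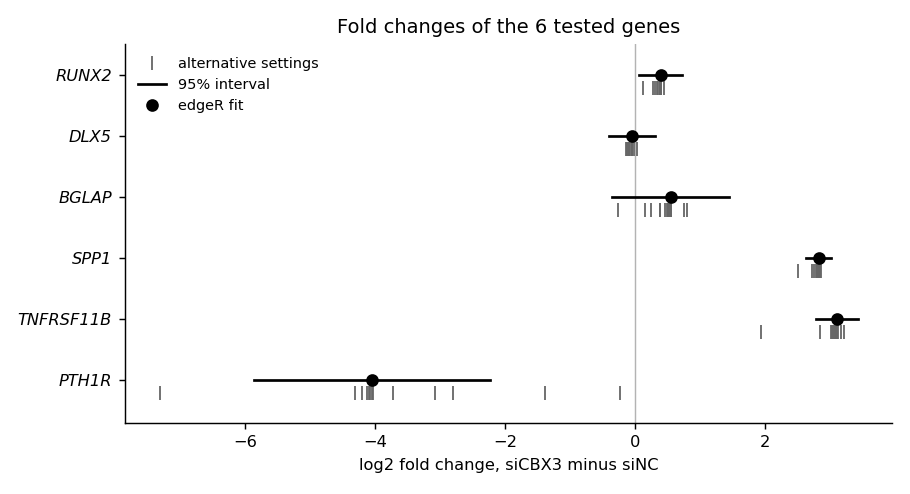
Log2 fold change, siCBX3 minus siNC, of the 6 tested genes: points are the edgeR fit, lines its 95% interval, and ticks the values under the alternative settings. SPP1 and TNFRSF11B lay above 0 throughout (2.51 to 2.85 and 1.93 to 3.22), and RUNX2 lay between 0.12 and 0.44. The ticks of DLX5 and BGLAP fell on both sides of 0, for BGLAP only through the sum with PMF1-BGLAP. The ticks nearest 0 for PTH1R are from RPKM with a pseudocount, which understates low genes.

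Between genes, levels were compared per length, in RPKM. In siNC the order was SPP1 at 4.64, DLX5 at 2.38, TNFRSF11B at 0.645, RUNX2 at 0.556, BGLAP at 0.420 and PTH1R at 0.188, with no overlap between neighbours, and then IBSP, ALPL and SP7, at 0.0347 or lower, whose ranges overlapped. In siCBX3 SPP1 stayed highest at 31.1, and TNFRSF11B at 5.26 stood above DLX5 at 2.17. RUNX2 at 0.690 and BGLAP at 0.584 overlapped. The last places were taken by ALPL, PTH1R, SP7 and IBSP, at 0.0172 or lower, which did not differ beyond their spread.

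**Figure D4:**
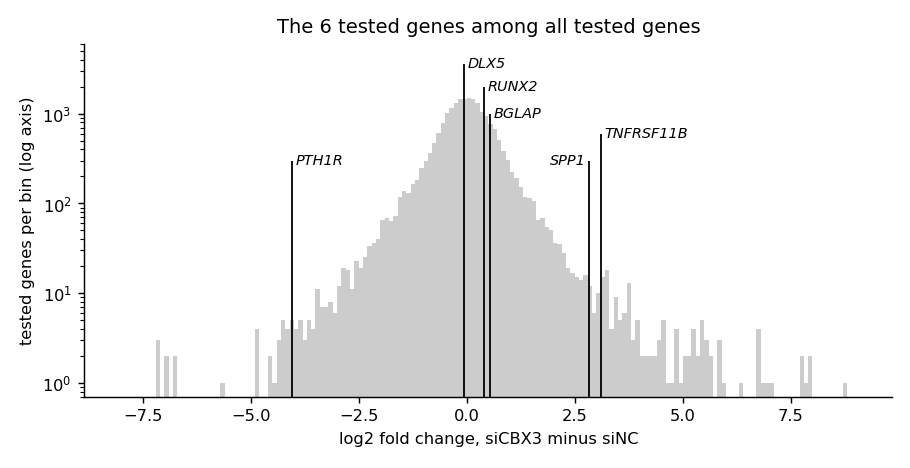
Number of tested genes in bins of 0.1 on the log2 fold change scale, siCBX3 minus siNC, with the 6 tested genes marked by lines whose height carries no value. DLX5, RUNX2 and BGLAP lay within the central mass of genes and SPP1, TNFRSF11B and PTH1R in the tails; the vertical axis is logarithmic.

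The RefSeq promoters of GRCh38.p14 gave 10 windows for 6 of the 9 genes, each from 250 bases before to 50 after a start. SP7, TNFRSF11B and DLX5 had no promoter entry and were not searched. On either strand, the RUNX core ACCACA was found in 3 of the 10 windows, 1 each of SPP1, RUNX2 and BGLAP, and in 13.1% of all 35116 promoters of the same length. The AP-1 letters TGANTCA were in 2 of the 10 (PTH1R and RUNX2), against 7.71% of all promoters, and the Sp/KLF letters GGGCGG in 4 of the 10, against 45.0%. In these windows no match of one motif overlapped a match of another. For comparison with the windows above, the BGLAP match (chr1:156242011-156242036, plus strand, 163 bases before the start) is printed with the SPP1 match in the same frame (chr4:87975562-87975587, plus strand), motif in capitals, beside the AP-1 match of PTH1R (chr3:46877684-46877710, plus strand, 27 bases before the start).
BGLAP: gcagctcccaACCACAatatcctttg
SPP1: ttttgttttaACCACAaaaccagagg
PTH1R: gtggaagctcTGACTCAggtcttttct
The BGLAP letters lie before the RefSeq start but inside the gene as counted, which starts at 156241962. The 3 genes with the RUNX letters in a window were 1 that rose 7.09-fold (SPP1), 1 with a marginal call at 1.31-fold (RUNX2) and 1 that did not pass the test (BGLAP).

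Over the 4 libraries, the coding genes whose log2 CPM, centred on each gene's mean, lay nearest to a called gene were found among 11614 whose higher group averaged 100 counts or more. For SPP1 they were COL5A1, PTGES and FAM20C, at Euclidean distances of 0.0833, 0.0986 and 0.154. For TNFRSF11B they were CADPS, COL6A5 and PIK3IP1, at 0.201 to 0.253, and for RUNX2 they included ATP6V1B2 and MSL1, at 0.0161 and 0.0225. For PTH1R the nearest lay farther off, PTPRZ1, CHMP4C and CRABP1, at 0.492 to 0.613. PTH1R itself, with 23 and 17 counts in siNC against 2 and 0 in siCBX3, was below that minimum of 100. Genes of like level were thus not compared with it, and its pattern rests on few reads. With 4 libraries in 2 groups these distances mostly compare the size of the change between the groups.

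Markers of other cell types were read beside the lineage genes. For the calls in each list, the shares over all genes tested were 24.4% higher and 24.0% lower. The osteoblast list, the 9 genes with COL1A1 and COL1A2, summed to 44.3 and 44.7 CPM in siNC and to 127 and 131 CPM in siCBX3; 8 of 11 were tested, 4 called higher and 1 lower. SPP1 made up most of that rise, while SP7, ALPL and IBSP were near 0, so the sum does not describe the list as a whole. Of 6 osteocyte markers 1 was tested, PDPN, which rose 2.45-fold, while SOST and DMP1 had at most 2 counts in any library.

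Of 8 chondrocyte markers 7 were tested, 1 was called higher and 4 lower, with summed levels of 64.9 to 74.6 CPM in siNC and 77.2 to 81.0 in siCBX3. The cartilage matrix genes ACAN, COL2A1, COMP and MATN3 fell from low levels, COL11A2 rose 1.59-fold, and SOX9, which dominates the sum, was not called. ACAN had 28 and 22 counts in siNC against 4 and 8 in siCBX3, and COL2A1 had 14 and 16 against 3 and 4. Both had enough reads for the test only through the siNC libraries, where they were higher. The number called lower therefore does not stand for the whole list. Of 7 adipocyte markers 4 were tested: PPARG rose 1.98-fold, CEBPA and LPL fell, and the sums were 16.3 to 18.5 and 22.2 to 23.6 CPM. ADIPOQ had at most 4 counts in any library.

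Of 7 osteoclast markers 4 were tested and 2 called higher, OSCAR and ITGB3, the second of which is also in the osteopontin receptor list; the sums were 25.5 to 27.0 and 57.2 to 57.7 CPM, and CALCR was at 0 throughout. Of 5 leukocyte markers 3 were tested and 1 called higher, the lysosomal protein CD68, which carried nearly all of a sum of 397 to 431 CPM in siNC and 595 to 658 in siCBX3, while PTPRC had 18 counts or fewer. None of the tested skeletal muscle (1 of 5) or endothelial (3 of 4) markers was called by edgeR, nor had any an unadjusted p under 0.05, with sums between 0.584 and 1.00 CPM and between 1.82 and 2.89 CPM. The part of these markers in the results for the 9 genes was not tested.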

How the data were processed

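Messenger RNA was sequenced from 143B cells in 2 siNC and 2 siCBX3 libraries, grouped by the sample titles. The submitters' processing notes name build GRCh38 and the programs STAR 2.5.3a, Trimmomatic 0.36, featureCounts and Subread 1.5.1, without their roles. How strand, read pairs, shared reads and molecular identifiers were handled was not given in the sources used here. For each gene the authors deposited raw read counts and RPKM values, 1 column per library per the file headers; the RPKM values were recomputed from count, length and library total and differed by at most 3.8e-07 of their size.

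The count model was edgeR 4.0.16 under R 4.3.3. Genes passing filterByExpr (minimum count 10, minimum total 15) were scaled with TMM factors and fitted by quasi-likelihood with group as the only term over all 4 libraries (2 residual and 22.0 prior degrees of freedom). Benjamini-Hochberg adjustment ran over all 20999 genes tested, and genes with an adjusted p under 0.05 were called. CPM values are TMM-scaled and given as mean ± SD (n = 2), and the SE of a log2 fold change is its size over the root of the F statistic. Intervals and floors cover counting error or the spread of these libraries only, since PCR copies of a molecule may be counted more than once. The edgeR step was tested on simulated data, in which the changed genes were few and had more counts than PTH1R. That simulation does not speak to genes with so few reads, or to data with as many calls as these.

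The 9 genes, the lists and the tests were chosen with earlier results of these data known. Named genes were the 9, CBX3, in each list the called genes with the 3 smallest adjusted p and those whose role stands beside one of the 9, the 3 genes nearest in pattern to each called gene, and features sharing exon bases. Some genes under this rule are not reported here. Not all neighbours named follow this rule, and these are marked in the text. Alternatives were library totals, upper-quartile scaling, DESeq2 1.42.0, limma-voom and limma on log2(RPKM + 1) or log2(RPKM + 0.1) (limma 3.58.1), other filters, a prior count of 2, leaving out each library, the replicate number as a block, and BGLAP summed with PMF1-BGLAP. Halving the counts was added after the data had been seen. Positions are those of the count table, neighbours and distances from its exons, and sequences from RefSeq tables of GRCh38.p14, read with Python 3.11.15 and pandas 2.3.3; plots used matplotlib 3.10.9.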

Additional observations from a re-analysis of the deposited data

How the results depend on the processing

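SPP1 and TNFRSF11B were called higher under all 15 alternatives run, and PTH1R lower under all 13 in which it was tested. Among these, the prior count of 2 changes the fold change only. Its calls, that of RUNX2 included, therefore repeat the main fit and add no support. The number of the 9 genes called higher was 2 under 12 of 14 alternatives, each time through the loss of RUNX2, and 3 under 2. The number called lower was 0 with the filter at a mean of 50 counts and 0 with counts halved, because PTH1R was then not tested. BGLAP reversed to -0.27 when summed with PMF1-BGLAP, a value set mostly by the PMF1-BGLAP counts. DLX5, at -0.052, ranged from -0.13 to 0.032 on the log2 scale when each library was left out in turn, positive without siNC replicate 1. When a library was left out, the lone library of its group was assumed to vary like the other group. Over all genes tested, the even split between higher and lower calls depended on TMM scaling. With library totals, 4243 genes were called higher and 5917 lower, and the median log2 fold change was -0.085. Of the list counts, the transcription factors called lower were 2 with DESeq2, without either siCBX3 library and on both RPKM scales, and 4 with library totals, upper-quartile scaling, the 50-count filter and without siNC replicate 2; those called higher were 2 without siCBX3 replicate 1 and on both RPKM scales. The bone matrix genes called higher were 4 on both RPKM scales in place of 6. The parathyroid hormone genes called higher were 2 on both RPKM scales in place of 4, and 1 gene of that list was called lower with library totals, upper-quartile scaling, that filter and counts halved. The replicate numbers did not pair the libraries: the deviations of same-numbered libraries had a correlation of 0.0287 across 20999 genes. With the replicate block, 10630 genes were called in place of 10173, 3 of the 9 genes higher and 1 lower, and the RUNX2 log2 fold change was 0.39 (edgeR adjusted p = 0.0355). Depth limits SP7, ALPL, IBSP, BGLAP and PTH1R, whose counts were 30 or fewer in every library.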
